A study of Mus musculus with 11 samples.

Results

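The colony-stimulating factor 1 receptor, its ligand Csf1 and 7 transcription factors of the microglial lineage were followed in ribosome-bound RNA of spinal cord microglia. The 9 genes are Csf1r, Csf1, Spi1, Irf8, Runx1, Sall1, Maf, Mef2a and Mef2c. They were chosen by name, each matched 1 row of the count table, and all 9 of the 39017 genes in the table had enough counts to be tested. Samples were labelled either Kdm6a cKO (5 libraries: cKO2, cKO4, cKO5, cKO6 and cKO7) or wildtype (WT, 6 libraries: WT8, WT9, WT13, WT15, WT16 and WT17). All came from spinal cords of healthy female C57BL/6 mice. Both groups carried Tmem119-Cre and RiboTag. The RiboTag allele puts an epitope on a ribosomal protein in cells where Cre is active, so that ribosomes with their RNA can be pulled down from one cell type. The Cre here, Tmem119-Cre/ERT2, is a tamoxifen-dependent recombinase driven by a microglial gene. In cKO mice the same Cre also deleted Kdm6a, which encodes a demethylase of histone H3 lysine 27. The age of the mice, the tamoxifen schedule and the exons removed are not given in the labels.

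Microglia depend throughout life on CSF1R, a receptor tyrosine kinase at the cell surface that is switched on by either of its ligands, CSF1 and IL34. Their identity rests on a small set of transcription factors. PU.1, the product of Spi1, opens enhancers throughout the myeloid lineage, and IRF8 and RUNX1 act with it from early macrophage development. SALL1 separates microglia from other macrophages in the mouse brain. MAF and the MEF2 factors belong to the programme of mature microglia, and MEF2C restrains inflammatory responses in mouse microglia.

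Csf1r and Sall1 were higher in cKO than in WT, without overlap between the libraries of the groups. The call of Csf1r held in all 21 alternative analyses and that of Sall1 in 9, and without WT13, WT16 and WT17, the 3 WT libraries richest in neuronal RNA, Sall1 did not pass (log2 fold change 0.15; edgeR adjusted p = 0.222). No member was lower in cKO by the main test on all 11 libraries, but Irf8 was without these 3 (-0.38, edgeR adjusted p = 0.000326). The 3 were singled out by neuronal RNA in these same data. They had the lowest Irf8 of WT, so leaving them out raises the WT level. Irf8 also passed as lower on all 11 libraries with library totals as the only scaling or with a covariate of other-cell markers. Irf8 went the other way from most members: relative to Csf1r, Sall1, Spi1, Maf, Mef2c or Runx1 in the same library it was lower in cKO. Csf1 was highest in WT13, WT16 and WT17.

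Promoter windows were available from RefSeq (GRCm38.p6, the assembly behind mm10) for 6 of the 9 genes, 12 windows in all, each from 250 bases before to 50 bases after an annotated start. Csf1r, Spi1 and Maf had no entry. For Irf8, Mef2a and Mef2c, each in a ratio that differed between the genotypes, 1 window is shown as an example. Sall1 and Runx1 were also in such ratios, and their windows are described but not shown. Capitals mark matches, on either strand, to the PU.1 core GAGGAA, the RUNX core TGTGGT, the STAT palindrome TTCNNNGAA or the MEF2 site. The upstream one of the 2 windows of Irf8 lies at chr8:120736108-120736407 on the plus strand, that of Mef2a at chr7:67372809-67373108 on the minus strand and the most upstream one of Mef2c at chr13:83503784-83504083 on the plus strand, each written 5′ to 3′ along its gene.
Irf8: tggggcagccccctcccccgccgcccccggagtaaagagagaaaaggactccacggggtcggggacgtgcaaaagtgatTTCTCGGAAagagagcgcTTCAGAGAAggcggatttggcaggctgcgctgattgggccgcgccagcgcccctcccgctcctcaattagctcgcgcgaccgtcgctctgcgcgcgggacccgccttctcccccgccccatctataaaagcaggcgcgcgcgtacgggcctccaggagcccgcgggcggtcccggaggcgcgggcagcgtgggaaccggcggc
Mef2a: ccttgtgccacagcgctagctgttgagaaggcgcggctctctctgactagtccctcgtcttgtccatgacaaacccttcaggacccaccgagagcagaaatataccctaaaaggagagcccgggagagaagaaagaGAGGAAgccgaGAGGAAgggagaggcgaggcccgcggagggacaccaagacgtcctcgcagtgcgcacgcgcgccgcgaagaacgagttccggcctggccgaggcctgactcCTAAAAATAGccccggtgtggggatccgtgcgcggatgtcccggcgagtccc
Mef2c: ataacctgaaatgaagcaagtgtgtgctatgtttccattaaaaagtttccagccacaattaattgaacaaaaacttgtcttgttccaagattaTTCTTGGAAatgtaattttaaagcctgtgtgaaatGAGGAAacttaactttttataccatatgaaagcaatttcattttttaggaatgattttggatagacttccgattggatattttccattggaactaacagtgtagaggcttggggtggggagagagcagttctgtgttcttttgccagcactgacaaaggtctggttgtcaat
This Irf8 window held 2 STAT palindromes, at 171 and 153 bases before the start by their first base, and no match to the other motifs. STAT factors are the nuclear arm of interferon and cytokine receptors. The Mef2a window held 2 PU.1 cores and 1 MEF2 site that spans the start itself, and the Mef2c window held 1 PU.1 core and 1 STAT palindrome. Over all 32851 windows in the table, 28.3% held the PU.1 core, 16.8% the RUNX core, 8.3% the STAT palindrome and 0.557% the MEF2 site. The second Irf8 window held no match. Of the windows not shown, the upstream one of Runx1 held 2 RUNX cores and the downstream one 1 PU.1 core, a further Mef2c window held 1 PU.1 core, and those of Csf1 and Sall1 held none of the 4 motifs. In all, 6 of the 12 windows held no match. A match describes letters only.

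Library totals ran from 28620584 to 40943004 counts. Kdm6a itself (chromosome X, 18162575 to 18279936, mm10) was low in both groups, at 3.80 to 7.73 counts scaled to a common library total (CPM) in cKO and 7.24 to 12 CPM in WT, and its log2 fold change of -0.61 (SE 0.25) did not pass (edgeR adjusted p = 0.193). A deletion of some exons need not remove the counts of the others. Most genes of the 30 in the homeostatic list of microglia were abundant in every library, but Trem2 and Aif1, which microglia express strongly, had a count of 0 in all 11 libraries. An exact 0 in this table therefore does not show that a gene was not expressed. The summed level of the list, of which Cst3, C1qb and Sparc were the highest members, was 101108 to 104923 CPM in cKO and 69909.5 to 92389 CPM in WT. Markers of neurons overlapped between the genotypes, but WT9, WT13, WT16 and WT17 summed above every cKO library. The mean log2 CPM of these markers was 0.30 lower in cKO (exact permutation p = 0.052, adjusted 0.108 over 6 lists of other cells). Their summed level over 20 genes was 1669 to 1910.5 CPM in cKO and 1712 to 1990.2 CPM in WT8, WT9 and WT15, but it reached 3079 CPM in WT13, 2542 in WT16 and 3583 in WT17. These 3 WT libraries also had the lowest homeostatic sums, 76845 CPM for WT13, 79558 for WT16 and 69909.5 for WT17. The fold change of each member is given below with and without them. Group means and correlations are given only with them. In RNA pooled from many cells, fewer cells of a type and less RNA per cell cannot be told apart. Nothing in the labels says that each library is 1 animal, so p-values measure the spread between these libraries.

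Levels of different genes were compared as CPM per kilobase of exon. Csf1r was the most abundant member by far, at 1740.3 ± 81.5 CPM per kilobase in cKO (SD, n = 5) and 1388 ± 149.9 in WT (SD, n = 6), and ranked 19 of all genes on this scale over the 11 libraries. Sall1 followed, at 276 ± 15.9 CPM per kilobase in cKO and 224 ± 27.7 in WT. Spi1 averaged 194 ± 15.1 in cKO and 175 ± 22.0 in WT, Irf8 89.7 ± 3.65 in cKO and 104 ± 14.6 in WT, and Maf 75.6 ± 6.28 in cKO and 60.4 ± 9.86 in WT. The remaining 4 were lower: Mef2c averaged 21.4 ± 2.64 in cKO and 17 ± 2.40 in WT, and Mef2a 17.1 ± 1.57 in cKO and 16.1 ± 2.35 in WT. Runx1 averaged 12.5 ± 1.74 CPM per kilobase in cKO and 8.97 ± 2.22 in WT, and Csf1 7.98 ± 1.09 in cKO and 9.69 ± 2.23 in WT. Within cKO every neighbour in this order was separated by its range except Mef2c and Mef2a. Within WT the ranges of Sall1 and Spi1 overlapped, as did those of Mef2c with Mef2a, Mef2a with Csf1 and Csf1 with Runx1. In each single WT library, however, Sall1 was above Spi1 and Mef2a above Csf1. The order of the other pairs was not fixed in WT: Mef2c was below Mef2a in WT16 only, and Csf1 was above Runx1 in WT13, WT16 and WT17 only. The exon length used is that of all annotated transcripts together, and a gene that uses a short isoform is understated.

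**Figure D1:**
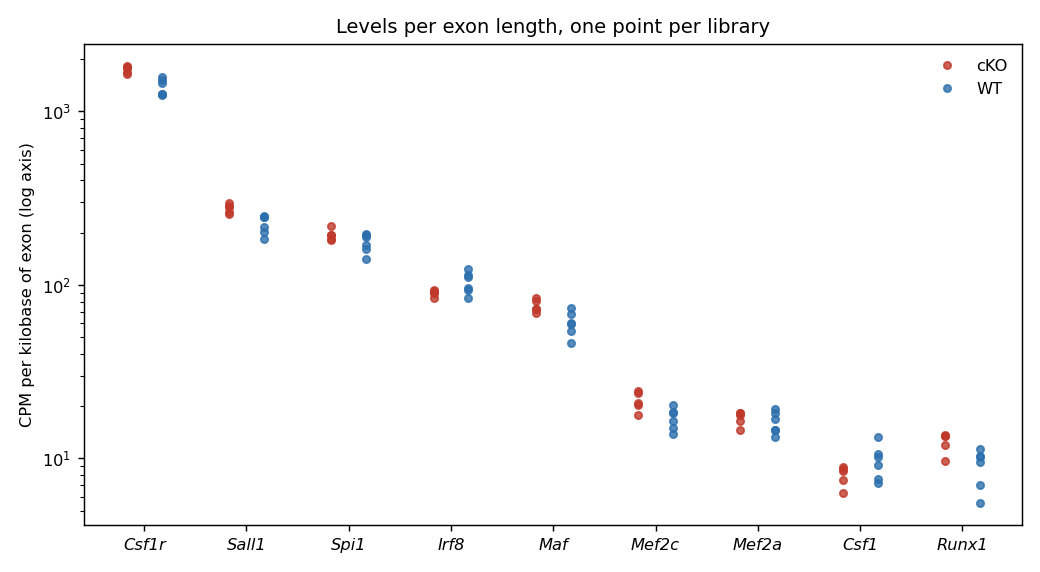
Level of the 9 genes in CPM per kilobase of exon (log axis), 1 point per library, cKO on the left of each pair and WT on the right. Csf1r lies between 1241 and 1827 in all 11 libraries, and Mef2c, Mef2a, Csf1 and Runx1 form the low end between 5.53 and 24.3.

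Csf1r (ENSMUSG00000024621, chromosome 18, 61100598 to 61132149, plus strand, mm10) is the receptor on which microglial survival depends. Its level was 10369 CPM in cKO2, 9689 in cKO4, 10204 in cKO5, 9432 in cKO6 and 10548 in cKO7, against 8723 CPM in WT8, 8444 in WT9, 7284 in WT13, 9156 in WT15, 7305 in WT16 and 7165 in WT17. All 5 cKO libraries lay above all 6 WT libraries, and WT13, WT16 and WT17 were the lowest. The group levels were 10049 ± 471 CPM in cKO (SD, n = 5) and 8013 ± 866 CPM in WT (SD, n = 6). Csf1r was 1.25-fold higher in cKO, a log2 fold change of 0.33 (SE 0.07, 95% interval 0.17 to 0.48), which passed edgeR's quasi-likelihood test (adjusted p = 0.0121). Without WT13, WT16 and WT17 the log2 fold change was 0.19 (SE 0.05) and still passed (edgeR adjusted p = 0.0180). Exons of the opposite-strand gene Hmgxb3 share 873 bases with Csf1r. Hmgxb3 had at most 2895 counts in a library, where Csf1r had at least 251551.

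Of the 9 members 2 rose and none fell by edgeR in the main fit, nor did any fall by DESeq2 or limma-voom. On all 11 libraries Irf8 did pass as lower by edgeR with library totals as the only scaling (-0.29). It also passed with a covariate built from markers of neurons, astrocytes and oligodendrocytes (-0.33). Over all 16025 genes tested, 1.86% rose and 2.43% fell by edgeR, 4.29% in all. When WT13, WT16 and WT17 were left out, 1 member rose (Csf1r) and 1 fell (Irf8), where 3.21% of 16409 genes passed. The ranges of the groups did not overlap for 2 members, Csf1r and Sall1, both higher in cKO. Of all genes tested, 4.16% had no overlap, 2.17% higher in cKO and 1.99% lower. Of the members, 6 had an unadjusted p under 0.05, namely Csf1r, Sall1, Maf, Mef2c, Runx1 and Irf8, where 18.3% of all genes tested had one.

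Csf1 (chromosome 3, 107741048 to 107760469, minus strand) encodes the ligand that microglia share with other macrophages. It was at 44.6 CPM in cKO2, 47.2 in cKO4, 45.9 in cKO5, 39.7 in cKO6 and 33.2 in cKO7, against 38 CPM in WT8, 40.3 in WT9, 54.1 in WT13, 48.5 in WT15, 56.2 in WT16 and 70.1 in WT17. WT13, WT16 and WT17 were the 3 highest of the 11 libraries, and the other WT libraries lay within or just above the range of cKO. The averages were 42.1 ± 5.73 CPM in cKO (SD, n = 5) and 51.2 ± 11.8 CPM in WT (SD, n = 6), and the log2 fold change of -0.28 (SE 0.15, 95% interval -0.58 to 0.02) did not pass (edgeR adjusted p = 0.317). It was -0.01 (SE 0.14) without WT13, WT16 and WT17. Il34, the other ligand of the receptor, made in the nervous system mostly by neurons, was barely present, at 1.02 to 3.27 CPM in cKO and 3.95 to 6.64 CPM in WT. Its groups did not overlap, and its log2 fold change of -1.24 (SE 0.39) did not pass (edgeR adjusted p = 0.0783).

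**Figure D2:**
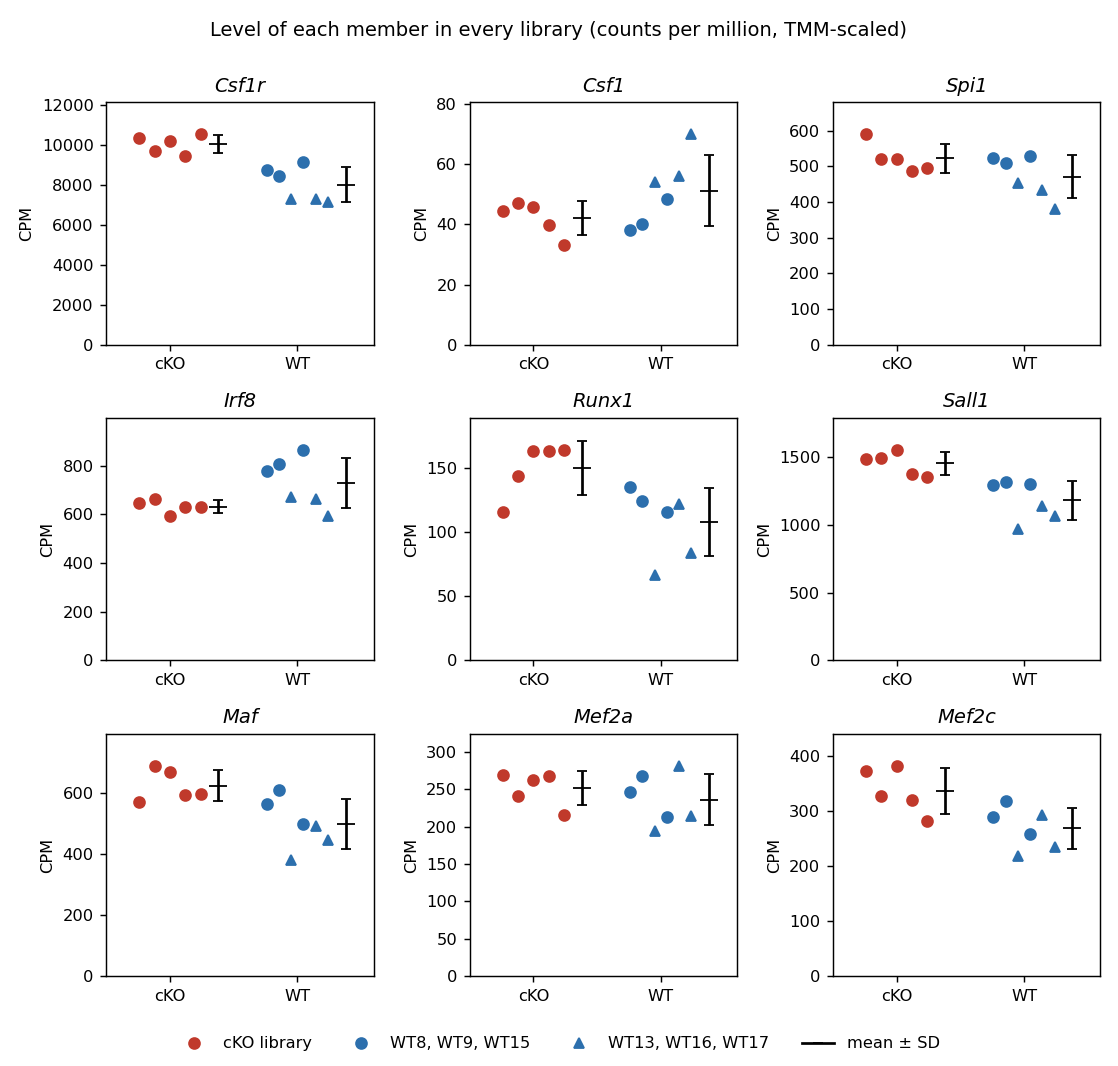
CPM of each gene in every library, 1 panel per gene, cKO on the left and WT on the right. Triangles mark WT13, WT16 and WT17, and the bars at the side show mean ± SD (n = 5 cKO and n = 6 WT). Csf1r and Sall1 separate by genotype, Irf8 in cKO lies well below WT8, WT9 and WT15 and near the triangles, and Csf1 is highest in the triangles.

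Among the transcription factors Sall1 (ENSMUSG00000031665, chromosome 8, 89027235 to 89044162, minus strand), the zinc finger factor that marks microglia, was at 1487 CPM in cKO2, 1492 in cKO4, 1554 in cKO5, 1377 in cKO6 and 1356 in cKO7, against 1293 CPM in WT8, 1316 in WT9, 966 in WT13, 1301 in WT15, 1136 in WT16 and 1067 in WT17. The lowest cKO library lay just above the highest WT library, WT9, and WT13 was the lowest of all. Sall1 rose 1.23-fold, with 1453 ± 83.8 CPM in cKO (SD, n = 5) and 1180.0 ± 146 CPM in WT (SD, n = 6), a log2 fold change of 0.30 (SE 0.08, 95% interval 0.13 to 0.47; edgeR adjusted p = 0.0396). The call was close to the threshold: it held in 9 of 21 alternative analyses. Leaving out any 1 of the 5 cKO libraries, or WT13, WT16 or WT17, ended it (edgeR adjusted p = 0.0528 to 0.125), and leaving out WT8, WT9 or WT15 did not. Without WT13, WT16 and WT17 the log2 fold change was 0.15 (SE 0.06, edgeR adjusted p = 0.222).

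Spi1 (chromosome 2, 91082390 to 91115756, plus strand), the gene of PU.1, was at 591 CPM in cKO2, 521 in cKO4, 522 in cKO5, 487 in cKO6 and 496 in cKO7. The WT libraries were at 523 CPM in WT8, 510.0 in WT9, 454 in WT13, 530.2 in WT15, 433 in WT16 and 380.5 in WT17. The cKO libraries other than cKO2 lay within the range of WT8, WT9 and WT15 or below it, and only WT13, WT16 and WT17 were lower than every cKO library. The averages were 524 ± 40.7 CPM in cKO (SD, n = 5) and 472 ± 59.4 CPM in WT (SD, n = 6). The log2 fold change of 0.15 (SE 0.09, 95% interval -0.03 to 0.33) did not pass (edgeR adjusted p = 0.388), and without these 3 WT libraries it was 0.002 (SE 0.07).

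Irf8 (ENSMUSG00000041515, chromosome 8, 120736358 to 120756694, plus strand) encodes an interferon regulatory factor that binds DNA together with PU.1. Its level was nearly the same in every cKO library, at 648 CPM in cKO2, 662 in cKO4, 594 in cKO5, 631 in cKO6 and 629 in cKO7. In WT it was at 780.1, 808 and 866 CPM in WT8, WT9 and WT15, and at 674 CPM in WT13, 663 in WT16 and 594 in WT17. WT8, WT9 and WT15 thus lay above every cKO library, while WT13 and WT16 lay just above the highest of them and WT17 level with the lowest. Over all libraries the averages were 633 ± 25.7 CPM in cKO (SD, n = 5) and 731 ± 103 CPM in WT (SD, n = 6), and the log2 fold change of -0.21 (SE 0.09, 95% interval -0.39 to -0.03) did not pass (edgeR adjusted p = 0.201). Without WT13, WT16 and WT17, the lowest WT libraries for Irf8, the log2 fold change was -0.38 (SE 0.06) and passed (edgeR adjusted p = 0.000326). Leaving them out raises the WT level, so this p is not independent support. With a covariate built from markers of neurons, astrocytes and oligodendrocytes it was -0.33 (SE 0.06, edgeR adjusted p = 0.00231), and with library totals as the only scaling it was -0.29 (SE 0.07, edgeR adjusted p = 0.0160). It passed in these 3 of 21 alternatives, and it was negative in all of them.

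Maf (chromosome 8, 115682942 to 115707794, minus strand), a bZIP factor of mature macrophages and microglia, was at 569 to 689 CPM in cKO and 379 to 608 CPM in WT, with averages of 623 ± 51.7 CPM in cKO (SD, n = 5) and 497 ± 81.3 CPM in WT (SD, n = 6). Of the WT libraries, 5 lay below every cKO library, and only WT9 did not. The log2 fold change of 0.33 (SE 0.10, 95% interval 0.12 to 0.53) missed the threshold (edgeR adjusted p = 0.0615), and it was 0.16 (SE 0.07) without WT13, WT16 and WT17. A noncoding gene on the opposite strand, Gm15655, shares 440 bases of exon with Maf, and the strand setting used in counting is not given in the sources used here. Runx1 (chromosome 16, 92601466 to 92826149, minus strand), the partner of CBFB in blood cell formation, varied most in both groups: it was at 116 CPM in cKO2 and 144 to 164 CPM in the other cKO libraries, and at 66.5 and 83.9 CPM in WT13 and WT17 and 115 to 135 CPM in the other WT libraries. Its log2 fold change of 0.47 (SE 0.16, 95% interval 0.13 to 0.81) did not pass (edgeR adjusted p = 0.118), and it was 0.26 (SE 0.10) without WT13, WT16 and WT17.

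The MEF2 paralogs are MADS-box factors that bind the same site. Mef2c (chromosome 13, 83504034 to 83667080, plus strand) was at 373 CPM in cKO2, 326 in cKO4, 382 in cKO5, 320.0 in cKO6 and 281 in cKO7, against 288 CPM in WT8, 317 in WT9, 218 in WT13, 257 in WT15, 293 in WT16 and 235 in WT17. All cKO libraries but cKO7 lay above every WT library. Mef2a (chromosome 7, 67231163 to 67372858, minus strand) was at 215 to 269 CPM in cKO and 194 to 282 CPM in WT, with the groups mixed. For Mef2c the log2 fold change was 0.33 (SE 0.10; 95% interval from 0.12 to 0.53; edgeR adjusted p = 0.0639), for Mef2a 0.09 (SE 0.10, 95% interval from -0.11 to 0.29; edgeR adjusted p = 0.713), and neither passed. Leaving out WT13, WT16 and WT17 gave 0.22 (SE 0.09) for Mef2c and 0.05 (SE 0.09) for Mef2a.

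**Figure D3:**
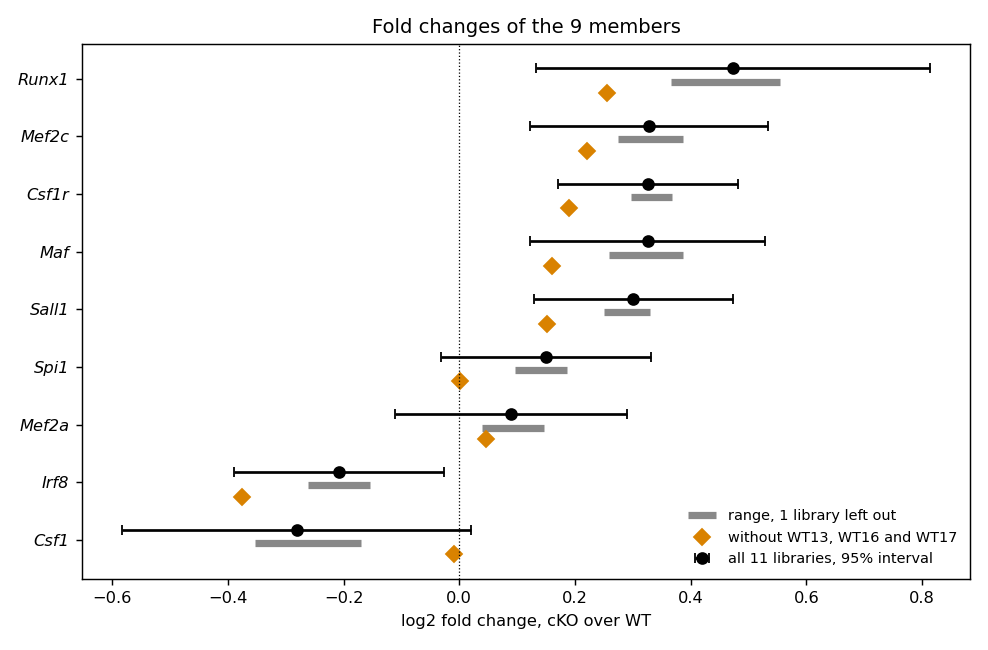
Log2 fold change of each gene, cKO over WT. Black points and bars give the estimate from all 11 libraries with its 95% interval, grey bars the range when 1 library at a time is left out, and orange diamonds the estimate without WT13, WT16 and WT17. Removing these 3 libraries moves every gene towards lower values except Csf1, and only Irf8 moves away from 0.

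A ratio of 2 genes within a library does not depend on how the library was scaled. A share of RNA from cells that express neither gene cancels in it, but RNA from other cells that express either gene does not. How much of each member came from other cells was not tested. Each of the 36 ratios of member counts was compared between the genotypes with a two-sided exact permutation test over the 11 libraries. Benjamini-Hochberg adjustment was over the 36. Of these, 7 passed, 6 of them with Irf8 on one side, and 12 had an unadjusted p under 0.05. For 5 ratios, all with Irf8, the groups did not overlap. The 8 ratios with Irf8 all use the same Irf8 counts, so they are not independent of each other. How often ratios of other genes pass or do not overlap was not computed.

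Irf8 over Spi1 was 1.10 in cKO2, 1.27 in cKO4, 1.14 in cKO5, 1.29 in cKO6 and 1.27 in cKO7, against 1.49 in WT8, 1.58 in WT9, 1.48 in WT13, 1.63 in WT15, 1.53 in WT16 and 1.56 in WT17. Every cKO library was below every WT library, and here WT13, WT16 and WT17 lay among the other WT libraries. The mean log2 ratio was 0.35 lower in cKO, at 0.28 ± 0.11 in cKO (SD, n = 5) and 0.63 ± 0.05 in WT (SD, n = 6; exact permutation p = 0.00216, the smallest that 5 against 6 libraries allow, adjusted 0.0195). Csf1r over Irf8 had a geometric mean of 15.9 in cKO (14.6 to 17.2) and 11.0 in WT (10.5 to 12.1), and Sall1 over Irf8 one of 2.30 in cKO (2.16 to 2.62) and 1.62 in WT (1.43 to 1.80). Irf8 over Maf was 1.02 in cKO (0.890 to 1.14) and 1.47 in WT (1.33 to 1.78). These 3 had the same exact permutation p as Irf8 over Spi1. The log2 ratio of Irf8 over Mef2c was 0.53 lower in cKO and that of Irf8 over Runx1 0.70 lower (adjusted exact permutation p = 0.0260 and 0.0334). The 4 ratios with the smallest p passed in 8 of 11 cases when 1 library was left out. They missed the threshold without WT8, WT9 or WT13 (adjusted exact permutation p = 0.0571), as did Irf8 over Mef2c, which also missed it without cKO5 (0.0735). Without WT8, WT9 or WT13 the groups still did not overlap for these ratios. Each exact p was then the smallest that 5 against 5 libraries allow, so the miss does not show a weaker difference. With 1 library left out, the log2 difference of Irf8 over Spi1 ranged from -0.38 to -0.32. Irf8 over Runx1 passed in 2 of 11, without cKO2 or WT16. Leaving out WT13, WT16 and WT17 together changed the log2 difference of Irf8 over Spi1 only to -0.37. With 5 against 3 libraries its exact permutation p was 0.0179, the smallest possible, and 0.129 after adjustment, and no ratio passed.

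Mef2c over Mef2a was the only ratio past the threshold without Irf8. It was 1.38 in cKO2, 1.35 in cKO4, 1.45 in cKO5, 1.19 in cKO6 and 1.30 in cKO7, against 1.17 in WT8, 1.19 in WT9, 1.13 in WT13, 1.21 in WT15, 1.04 in WT16 and 1.09 in WT17. Only cKO6 lay within the WT range. WT13, WT16 and WT17 were the lowest libraries, and the part of other cells in this ratio was not tested. The mean log2 ratio was 0.23 higher in cKO (exact permutation p = 0.00433, adjusted 0.0260), and it passed in 3 of 11 cases with 1 library left out, without cKO2, cKO6 or WT15. Without WT13, WT16 and WT17 the difference was 0.17 (exact permutation p = 0.0714, adjusted 0.234).

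**Figure D4:**
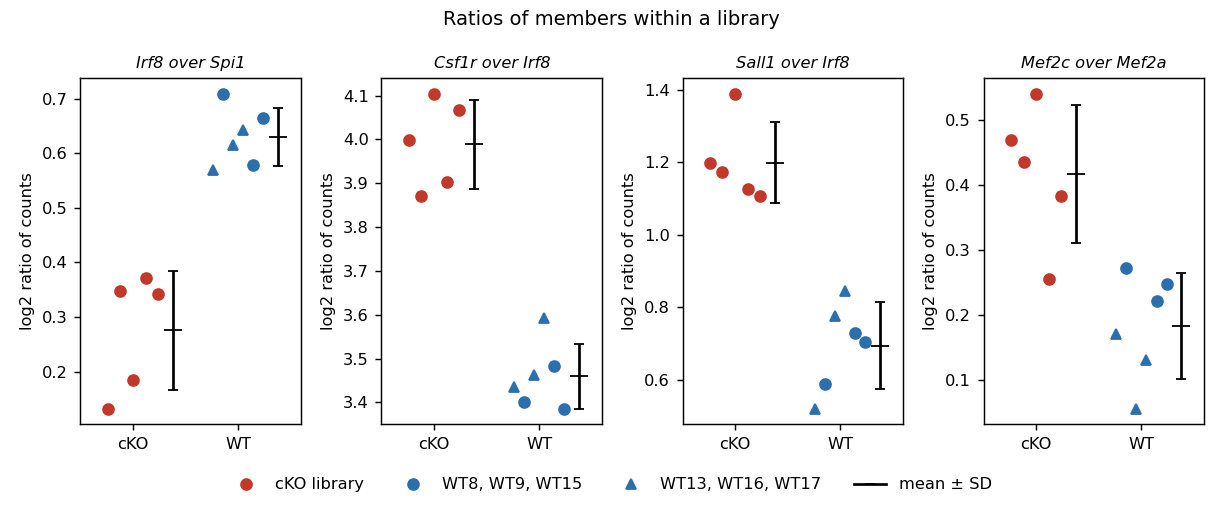
Log2 ratio of counts of 2 genes within each library, cKO on the left and WT on the right of each panel. Triangles mark WT13, WT16 and WT17, and bars show mean ± SD (n = 5 cKO and n = 6 WT). The genotypes do not overlap for the 3 ratios with Irf8, and 1 cKO library falls within the WT range for Mef2c over Mef2a.

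The level of each member over the 11 libraries was set beside those of 7196 named genes whose log2 CPM averaged 4 or more, and the genes with the highest Pearson correlation were taken as most alike. They were picked as the highest, so no test is given. Csf1r was most like Psap, the precursor of lysosomal saposins (r = 0.98, Spearman's rho 0.98), Wasf2 (r = 0.98, rho 0.94) and Sirpa, the receptor for CD47 (r = 0.97, rho 0.96). Sall1 was most like Itgam, an integrin of myeloid cells (r = 0.98, rho 0.94), Sparc (r = 0.97, rho 0.97) and Rnf34 (r = 0.97, rho 0.95). Irf8 was most like the cysteine protease gene Ctsh (r = 0.99, rho 0.98), Tmem173, which encodes the cytosolic DNA signalling adaptor STING (r = 0.96, rho 0.93), and Tor4a (r = 0.93, rho 0.85). For Ctsh the correlation was 0.98 also among deviations from the group means. Csf1 was most like Fbxl16, Gabbr2, a subunit of the GABA-B receptor of neurons, and Tmed8 (r = 0.91, 0.89 and 0.89; rho 0.88, 0.79 and 0.73). For Spi1 the 3 were the pseudogene Scp2-ps2, Fmnl3 and Cmtm6 (r from 0.94 to 0.98), for Runx1 Serinc3, Trim44 and Usp2 (0.95 to 0.98), and for Maf Smim10l1, the Polycomb gene Bmi1 and Rhoq (0.94 to 0.95). Mef2a was most like Cpsf6, Tomm70a and Tcf4 (0.90 to 0.96) and Mef2c most like Nucks1, Qk and Kpnb1 (0.93 to 0.96). The 11 points of each correlation share the libraries, their depth and the 2 genotypes.

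**Figure D5:**
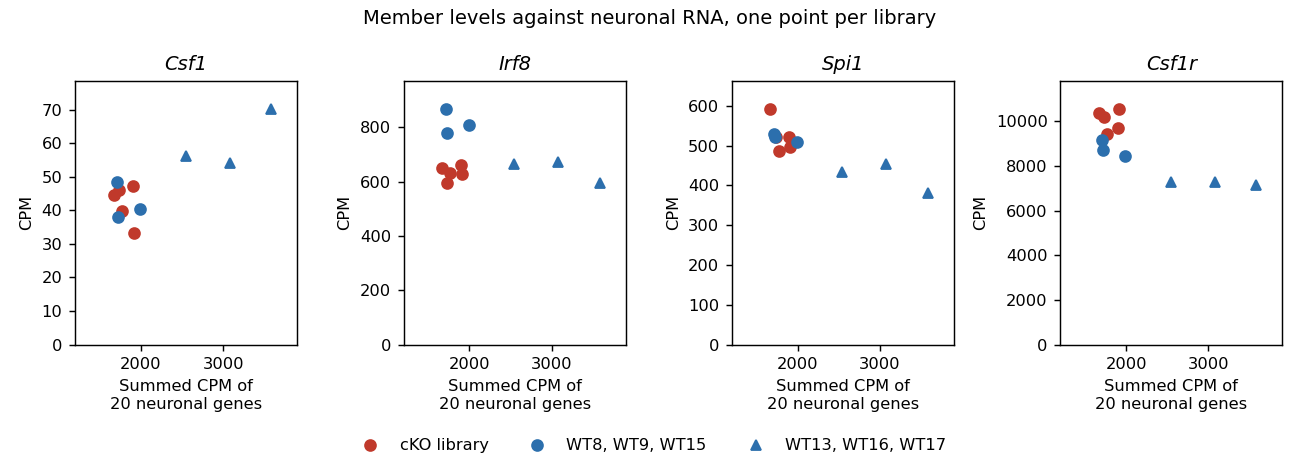
CPM of 4 genes against the summed CPM of 20 neuronal genes, 1 point per library, with cKO in red and WT in blue. WT13, WT16 and WT17 (triangles) lie to the right at 2542 to 3583, with higher Csf1 and lower Spi1 and Csf1r than the other libraries. Irf8 of the cKO libraries is near the level of the triangles, and the cKO points lie further to the left. The part of neuronal RNA in these levels was not tested.

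The list of CSF1R signalling held 24 genes, the ligand Il34 and 23 genes that act at or below the receptor, and 23 of the 24 could be tested. Of these 2 rose, 2 fell and 19 did not pass, 17.4% against 4.29% of all genes, and the median log2 fold change was 0.09, beside -0.01 over all genes tested. It was -0.005 without WT13, WT16 and WT17. Pik3r1, the regulatory subunit of phosphoinositide 3-kinase, rose without overlap, at 368 to 519 CPM in cKO and 203 to 317 CPM in WT (log2 fold change 0.67, SE 0.10; edgeR adjusted p = 0.000374), and the Src-family kinase Fyn rose with overlap (0.67, SE 0.13; edgeR adjusted p = 0.00422). Both passed in all 21 alternatives. Plcg2, a phospholipase that acts below microglial receptors (-0.38, SE 0.10; edgeR adjusted p = 0.0324), and the phosphatase Ptpn6 (-0.35, SE 0.10; edgeR adjusted p = 0.0401) fell and passed in 13 and 11 of 21 alternatives. Either call was lost without cKO4, cKO5, cKO6, WT8, WT9 or WT15, that of Plcg2 also without cKO2 and that of Ptpn6 also without cKO7 or WT16. Both were lower without WT13, WT16 and WT17, at -0.56 and -0.48. Of the genes that did not pass, Inpp5d and Lyn had the highest level, with log2 fold changes of 0.14 and 0.23.

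Of 9 related receptors none rose and 3 fell, 33.3% against 4.29% of all genes, with a median log2 fold change of -0.50. Leaving out WT13, WT16 and WT17 brought this median to -0.15, with 3 genes lower by the test, and the marker covariate brought it to -0.07. Csf2rb2, a second beta chain found in the mouse for the interleukin-3 receptor, fell to 30.1 to 52.6 CPM in cKO, against 63.1 to 110.1 CPM in WT (log2 fold change -1.12, SE 0.14; edgeR adjusted p = 4.07e-05). Csf2rb, the common beta chain of the receptors for GM-CSF, interleukin-3 and interleukin-5, was at -0.63 (SE 0.11; edgeR adjusted p = 0.00114), also without overlap. The 2 genes are near-identical copies and may share reads. Csf3r, the receptor for G-CSF, was at -0.35 (SE 0.09; edgeR adjusted p = 0.0320) and passed in 14 of 21 alternatives, but not without cKO4, cKO5, cKO6, cKO7, WT9, WT15 or WT16. Csf2ra, the alpha chain that pairs with Csf2rb for GM-CSF, was at 0.04 (SE 0.13) and did not pass, nor did Pdgfra at -0.24 (SE 0.32).

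Among 22 paralogs and partners of the members, 16 could be tested and 3 had a count of 0 in every library (Spib, Spic and Runx3). Of these 16 genes 3 fell and 13 did not pass, 18.8% against 4.29% of all genes, with a median of -0.07, and of -0.15 without WT13, WT16 and WT17. The paralogs of Irf8 that fell were Irf4 (-1.18, SE 0.27; edgeR adjusted p = 0.0117), at 5.44 ± 2.23 CPM in cKO (SD, n = 5) and 12.3 ± 2.94 CPM in WT (SD, n = 6), and Irf7 (-1.14, SE 0.29; edgeR adjusted p = 0.0236), which did not pass without WT13, WT16 and WT17 (-0.82, SE 0.34, edgeR adjusted p = 0.306). Sall2, a paralog of Sall1, fell where Sall1 rose (-0.38, SE 0.10; edgeR adjusted p = 0.0228), and its call was lost without cKO5, cKO6, cKO7 or WT9. That of Irf7 was lost without cKO2, cKO4, cKO5 or WT16. The highest of those that did not pass were Irf5 (0.11) and Mef2d (-0.07), and Cbfb, the partner of RUNX1, was at -0.004 (SE 0.10).

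Of 31 other transcription factors of myeloid cells 26 could be tested. In cKO 4 rose, 1 fell and 21 did not pass, 19.2% against 4.29% of all genes, with a median of 0.02. Cebpa, which acts beside PU.1 in myeloid cells, rose with the smallest p of the list, at 1001 to 1204 CPM in cKO and 627 to 828 CPM in WT (log2 fold change 0.62, SE 0.09; edgeR adjusted p = 8.15e-05), and passed in all 21 alternatives. Its relative Cebpb (0.59, SE 0.15; edgeR adjusted p = 0.0250), Ets1 (0.36, SE 0.09; edgeR adjusted p = 0.0144) and Ikzf1 (0.34, SE 0.08; edgeR adjusted p = 0.0154) rose as well, and each lost its call without WT13, WT16 and WT17 (0.41, 0.23 and 0.22; edgeR adjusted p = 0.375, 0.105 and 0.0888). The calls of all 3 were also lost without cKO5, those of Ikzf1 and Cebpb without cKO6, and that of Cebpb without cKO7, WT13, WT16 or WT17. Over the list, 1 gene rose and 3 fell when these 3 WT libraries were left out, with a median of -0.02. Bhlhe41, a repressor of the basic helix-loop-helix family, fell to 194 to 228 CPM in cKO, against 275 to 445 CPM in WT (-0.68, SE 0.11; edgeR adjusted p = 0.000325), and was at -0.89 (SE 0.08) without WT13, WT16 and WT17. The highest of those that did not pass were Tfe3 (-0.04) and Smad3 (0.05).

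Of 27 testable genes of the homeostatic list 12 rose and 3 fell, 55.6% against 4.29% of all genes, with a median log2 fold change of 0.27. Those with the smallest p were the receptor Gpr84 (-1.86), Rhob (0.84), Upk1b (-1.63), Ltc4s (-0.90), Cst3 (0.47) and the TGF-beta receptor Tgfbr1 (0.52), with edgeR adjusted p from 1.82e-07 to 0.000624. When WT13, WT16 and WT17 were left out, 9 were higher and 4 lower by the same test, with a median of 0.13. The list was assembled with results of these libraries in view and is not independent evidence of a direction.

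Other cells of the cord were present at levels that differed between libraries, and their part in the values of the members was not tested. Neuronal markers had no gene past the edgeR threshold among 20 (6 at an unadjusted p under 0.05, which 18.3% of all genes reached), with a median of -0.32 (Nefh -1.0, Nefm -0.43), and without WT13, WT16 and WT17 Nefh was at -0.10. The summed level of 17 astrocyte genes was 5185 to 7296 CPM in cKO and 5056 to 5889 CPM in WT. Of these 17, 1 passed, 5.88% against 4.29% of all genes, namely Glul (0.47, SE 0.11, edgeR adjusted p = 0.0236), and Atp1b2 was at -0.04. The summed level of 18 oligodendrocyte genes was 5051 to 5800.1 CPM in cKO and 4987 to 6479 CPM in WT. Mbp was at -0.0004, Mobp at 0.07 and none was past the edgeR threshold (4 at an unadjusted p under 0.05). The summed level of 17 endothelial and mural genes was 61.0 to 88.2 CPM in cKO and 69.5 to 262 CPM in WT. Of the 15 that could be tested, Pecam1 (-0.58) and Kdr (-1.30) passed, 13.3% against 4.29% of all genes, and 0 had a positive log2 fold change. Their median was -1.20, and -0.03 without WT13, WT16 and WT17. Cldn5 was listed at 0 in every library. Glul, Pecam1 and Kdr did not pass without WT13, WT16 and WT17. Border-associated macrophages, which also express Csf1r and Maf, had 97.6 to 141 CPM over 10 genes in cKO and 77.7 to 122 CPM in WT. Most of it was Stab1 (0.18, not passed), Siglec1 was at -0.54 (not passed), and Lyve1, Pf4 and Cd209f were listed at 0 in every library, as Trem2 and Aif1 of microglia were. Monocyte and neutrophil markers summed to 5.01 to 12.9 CPM in cKO and 4.52 to 22.1 CPM in WT over 10 genes, with Fn1 at -0.43 and Vcan at -1.03, neither passed, and Ly6c2, Chil3, Ly6g and Retnlg listed at 0, which in this table does not show absence.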

How the data were processed

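The authors deposited 1 table of raw counts for the 11 samples, by Ensembl gene, in whole numbers that had not been normalized. Per the labels' protocols, the ribosome-bound RNA went through Direct-zol columns and mRNA enrichment into a stranded KAPA kit. Bcl2fastq 2.17, Trimmomatic, FastQC and the build mm10 appear in the submitters' processing notes. The aligner, the counter, its strand setting and the annotation were not given in the sources used here. In each library 73.5 to 83.9% of counts from 1 to 200 were even, as happens when both mates of a pair are counted, so independent fragments may be fewer. No replicate pair agreed within sampling noise (lowest chi-square 17.8 per gene).

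Symbols matched 37607 of 39017 identifiers. Coordinates and exon lengths are those of GENCODE M21. Genes passing filterByExpr (minimum count 10, total 15) were scaled by TMM and tested with edgeR 4.0.16 (R 4.3.3) (quasi-likelihood F test, robust) on all 11 samples with genotype as the only term, Benjamini-Hochberg over 16025 genes and a threshold of 0.05. SE was taken as the size of the log2 fold change over the root of its F. CPM uses TMM-scaled totals. The procedure was run on simulated counts drawn from a common mean profile, apart from genes changed on purpose in cKO. They held no differences in other-cell RNA and no doubled counts, so they say nothing on these features. Alternatives were other scalings and filters, DESeq2 1.42.0, limma-voom 3.58.1, a marker covariate, each library left out, and WT13, WT16 and WT17 left out. WT13, WT16 and WT17 were singled out by their neuronal RNA in these same data. Members and lists were chosen with earlier results of these data known, and the STAT motif, the use of all 36 ratios and their alternatives after the data were seen. A listed gene that is not reported here was left out of the counts of its list. Named genes are the 9 members, Kdm6a, genes overlapping a member, the 3 most alike per member, and from each list those past the threshold (up to 8, 6 or 4 by p) and the 2 highest that did not pass.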

Additional observations from a re-analysis of the deposited data

Results flagged for a closer look

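A library was taken to stand apart where its distance to the next one, as a share of the group's whole range, passed Dixon's 95% critical value (0.71 for 5 and 0.625 for 6). This held in 8 of 116 groups, where chance gives about 1 in 20, or 5.8. None of the 9 members was among them. The values are CPM. In WT, Il34 was high in WT13 (6.64 against 3.95 to 4.87, gap ratio 0.658), Fyn was high in WT13 (60.4 against 31.5 to 42.1, 0.634) and Csf3r was high in WT15 (319 against 252 to 277, 0.628). In cKO, Csf3r was high in cKO2 (271 against 194 to 206, 0.846) and Siglech, of the homeostatic list, was high in cKO5 (1074 against 864 to 921, 0.729). In cKO6, Bhlhe41 was low (194 against 219 to 228, 0.755), and Olfml3 (160.1 against 112 to 121, 0.812) and Pecam1 (33.8 against 24.5 to 26.8, 0.759) were high.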

How the results depend on the processing

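Csf1r kept its direction and its call in all 21 alternatives (log2 fold change 0.19 to 0.37). Sall1 stayed positive and passed in 9. It did not pass with library totals (0.22), upper quartile factors (0.30), the marker covariate (0.20) or without WT13, WT16 and WT17 (0.15), and ranged from 0.25 to 0.33 without 1 library. Irf8 passed with library totals (-0.29), the covariate (-0.33) and without those 3 libraries (-0.38). Maf, Mef2c and Runx1 passed with DESeq2 (0.32, 0.32 and 0.47), and Maf and Mef2c without a low count filter (0.32 and 0.33); without 1 library Maf ranged from 0.26 to 0.39 and Mef2c from 0.27 to 0.39. No member changed sign, and Csf1, Spi1 and Mef2a passed in none. The cause of these changes was not tested. Of all genes, 298 were higher and 389 lower; 164 were higher without WT13, WT16 and WT17 and 187 with the covariate, and 601 were lower with library totals, where 203 were higher and the median of all genes was -0.10, and 666 with DESeq2. Without 1 library 170 to 388 were higher and 264 to 557 lower. Pairs of members whose ratio differed numbered 7, 0 without the 3 WT libraries, and 0 to 9 without 1 library. The count of 0 came when WT8, WT9 or WT13 was left out. For the 5 ratios without overlap, all with Irf8, each exact p was then the smallest that 5 against 5 libraries allow. For these the count does not show a weaker difference. Irf8 over Runx1 and Mef2c over Mef2a overlapped between the groups, and this does not apply to them. The alternatives for ratios were added with the data in view. Of 693 list values under alternatives, 111 moved: a count by over 1.5 times, or a median by at least 0.1 or to the other sign. No paired analysis was possible because the replicate numbers of cKO and WT do not coincide. The lowest count of a member in a library was 1086, so counting error adds little to the spread between libraries.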
